A study of Schizosaccharomyces pombe with 32 samples.

Results

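The comparison described here asked which transcripts of the fission yeast Schizosaccharomyces pombe were still changing once a culture had been without nitrogen for several hours. It set the 4 arrays at 7 and 8 h of nitrogen starvation (late) against the 4 arrays at 4 and 5 h (middle), all from the strain labelled L972 and all without added pheromone, 8 of the 32 arrays of the series. Every array was a spotted 2-colour array on which polyA RNA of starved cells was labelled with Cy5 and that of the same strain during growth with Cy3. Growing cells were taken from the rich medium YES at 30 C, and starved cells had been washed into the minimal medium EMM2 without nitrogen sources (EMM2-N), so every ratio to growth also spans a change of medium, whereas middle and late cells shared the same medium. The other 16 arrays held the strain labelled CRL672, starved in EMM2-N with 0.5 micrograms per ml of synthetic P-factor, and are used only where stated. Strain and P-factor changed together in that condition and cannot be told apart.

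Fission yeast needs nitrogen to grow. When it runs out, cells of the wild type divide into small cells, arrest before DNA replication and switch on genes for mating, while the transcripts of ribosomes and other growth genes drop. P-factor is the mating pheromone of P cells and M-factor that of M cells. Cells without a partner leave this programme unfinished and enter a quiescent state, in which proteins and RNA are recycled.

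Each value is the deposited log ratio of starved over growing cells, taken as base 2 and centred on its array's median. The 16 arrays without P-factor fell by their array numbers into 2 series of 8 hourly arrays, called series 1 and series 2. Series 2 ran in the order of the hours. In series 1 the arrays at 1, 3, 5, 7 and 8 h had adjoining numbers and those at 2, 4 and 6 h lay apart from them, so the number of the 4 h array of series 1 did not adjoin those of the 3 other arrays of series 1 used here. The labels do not say what the numbers mark. Over all genes, the 2 arrays of an hour correlated at 0.85 to 0.873, whereas arrays within a series correlated at 0.911 to 0.97 in series 1 and at 0.92 to 0.96 in series 2. Each gene's series offset was therefore taken out as a block. The labels say that experiments were repeated but not whether the hours of a series came from a single culture, so the p-values measure the spread of arrays around the hourly means after the series offset. Precision is limited by the number of arrays, which have no sequencing depth.

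The cells carried the marks of starvation and of M cells at both stages. The starvation genes isp6, a vacuolar protease, and isp4, a peptide transporter, lay between 5.52 and 6.84 and between 4.41 and 6.58 above growth on the log2 scale on all 8 arrays. The M-factor precursor gene mfm1 lay between 4.75 and 9.07 and the gene of the M-factor exporter, mam1, between 3.03 and 4.97. The P-cell genes stayed near growth: map3, the receptor for M-factor, lay between -1.10 and -0.17 and map4, an agglutinin of P cells, between -0.23 and 0.56.

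Of 4783 genes tested with limma, 187 (3.91%) passed an adjusted p of 0.05 between middle and late, 137 higher late (2.86%) and 50 lower late (1.05%). The genes that rose were above all those of the cytosolic ribosome, with genes of ribosome assembly and a few of protein folding. Those that fell held 3 histone genes, the glucanase gene eng1, the amino acid transporter gene aat1 and 3 genes of uracil and uridine use. Changes were small: 15 of the 187 reached 2-fold, 7 higher and 8 lower. At an unadjusted p of 0.05, 903 genes passed. All 187 had the same sign in both series, against 63.6% of all tested genes with a positive change and 60.1% of those with a negative one. The test itself favours genes that agree between the series, so this is no separate replication. All 4 late arrays lay above all 4 middle arrays for 209 of the 4648 genes measured on all 8 (4.5%) and below them for 112 (2.41%).

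These counts rest on calls close to the threshold. The adjusted p of the genes that rose lay between 0.00593 and 0.0495, and without the series as a replicate block no gene passed (0, with 414 at an unadjusted p under 0.05). Leaving out 1 array gave 12 calls without 4 h, 24 without 5 h, 3 without 7 h and 1 without 8 h of series 1, and 188 without 4 h, 1 without 5 h, 8 without 7 h and 4 without 8 h of series 2. A series alone has a single array at each hour and so no spread of its own. The fits without a series took their spread from the P-factor arrays, so their counts of calls are left out. Quantile normalization gave 88 higher and 65 lower, against 137 and 50 here. None of the 41 called genes that the naming rule chose changed sign under the alternatives run (19 for each but nop2, which had 16). Their sign was the same in both series to begin with, so leaving out a series could hardly reverse it. The alternatives also reuse the same arrays, so the kept signs were largely set in advance. Sizes moved, for hsp3105 from 1.17 to 2.62. Calls were kept far less often than signs, from 2 of 19 alternatives for urh1 to 16 of 19 for SPBPB10D8.02C. The call held under 3 for sre1, 4 for aha1, 5 for cfh4, 6 for urg2 and 9 for mfm1.

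The late change was smaller than the one before it. Over all genes the late minus middle change had an SD of 0.31 on the log2 scale, and the change from 1 and 2 h to 4 and 5 h (middle minus early) had an SD of 0.53. In the same fit, 1289 genes (26.9%) passed the test for middle minus early, 814 higher and 475 lower, 258 of them by 2-fold or more. Both contrasts use the arrays at 4 and 5 h, and their difference was not tested. The mean at 6 h, which the contrast does not use, lay between the middle and the late mean for 97.8% of the 137 genes that rose and for 47 of the 50 that fell (94%), against 40.7% of all tested genes with a positive change and 35.3% of those with a negative one. Called genes have a wider gap between the stages than other genes, so these shares are a description and cannot be set against each other.

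Of the 137 genes that rose late, 120 (87.6%) had been below growth at 1 to 3 h, against 55.1% of all genes with a positive change. At 7 and 8 h, 109 of the 137 lay below growth, against 1118 of the 2485 genes with a positive change. Ribosomal protein genes carry much of both shares. Of the 58 other genes that rose, 41 (70.7%) had been below growth early, against 53% of all genes with a positive change that are not of the ribosome. Late, 30 of the 58 lay below growth, against 1002 of these 2368 genes. Of the 50 that fell, 35 (70%) had been above growth at 1 to 3 h, against 55.3% of all genes with a negative change. By 7 and 8 h, 38 of the 50 lay below growth, against 1313 of the 2298 genes with a negative change. Genes chosen for a fall lie lower late in part by that choice.

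**Figure D1:**
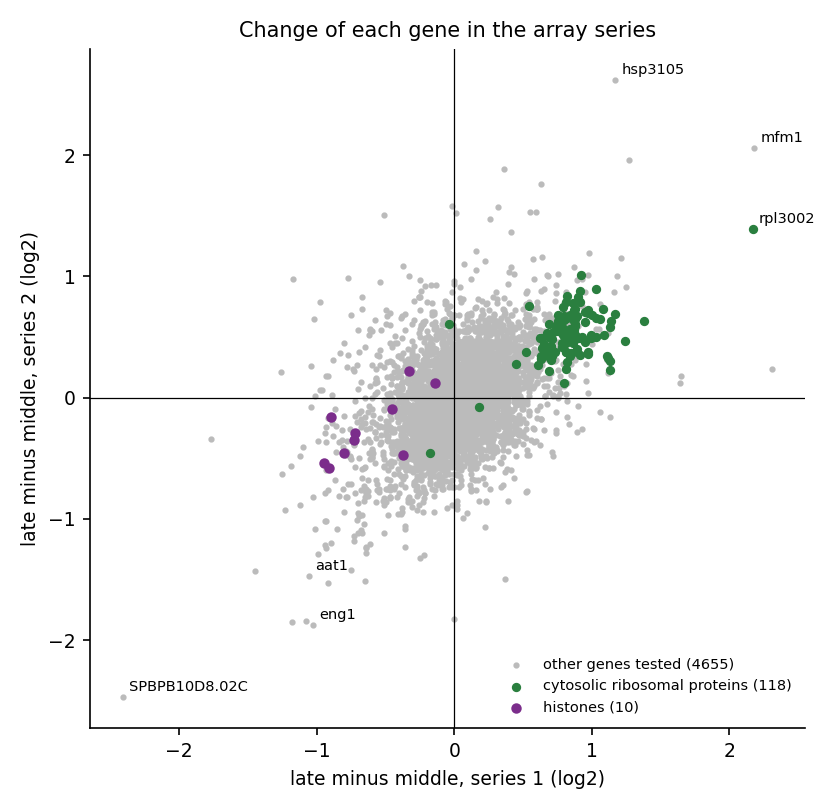
Late minus middle change (log2) of each of 4783 genes in series 1 (horizontal axis) and in series 2 (vertical axis), with cytosolic ribosomal protein genes in green and histone genes in purple. The ribosomal protein genes form a group above 0 in both series, and the changes of all genes correlate at 0.46 over genes, which are not independent replicates.

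Genes of cytosolic ribosomal proteins, the structural proteins of the ribosome, made up 79 of the 137 genes that rose. Of 118 measured, 79 rose and 0 fell, and 115 were higher at an unadjusted p under 0.05. Their median change was 0.68 on the log2 scale, against 0.01 over all genes tested. The median was 0.84 in series 1 and 0.52 in series 2, and 115 of 118 were higher in both. Over all 4783 genes tested, 1582 were higher in both, and 510 were higher at an unadjusted p under 0.05. On 97 of the 116 measured on all 8 arrays, every late value lay above every middle value. The subunits moved alike, with 49 of 74 genes of the large subunit called (median 0.69) and 30 of 44 of the small subunit (median 0.67).

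In series 1 the median level of the ribosomal protein genes against growth was -2.74 at 4 h, -1.89 at 5 h, -1.94 at 6 h, -1.40 at 7 h and -1.50 at 8 h. In series 2 it was -2.13, -2.04, -1.91, -1.64 and -1.47 at the same hours. The late medians lay above all middle medians, and the array at 4 h of series 1 was the lowest of the 8. Without that array the median change was 0.51 and 1 of the 118 genes passed the test. Over the arrays of series 1 with adjoining numbers (5, 7 and 8 h), the late mean exceeded 5 h by a median of 0.42 and was higher for 115 of the 118 genes. The same difference in series 2 was 0.46, higher for 117. The called count was 0 without 7 h of series 1, 0 without 8 h of series 1 and 0 without 5 h of series 2. It was 7 without 5 h of series 1, 2 without 7 h and 1 without 8 h of series 2, and 107 without 4 h of series 2. It was 39 after quantile normalization, which gave a median of 0.50.

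**Figure D2:**
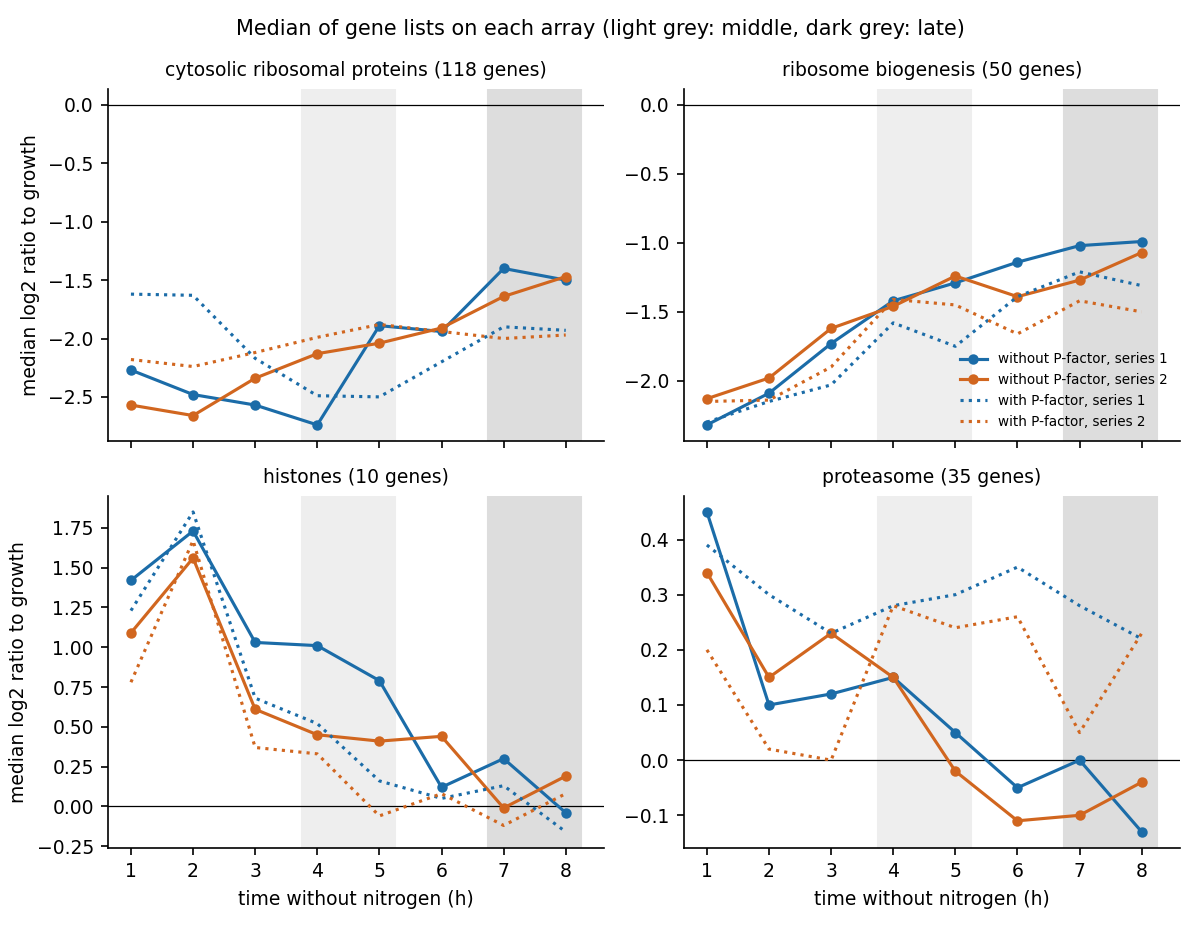
Median log2 ratio to growth over the genes of 4 lists on each array against hours without nitrogen; solid lines are the series without P-factor and dotted lines those with it, and the shaded bands mark the middle and late hours. The median of ribosomal protein genes without P-factor went from -2.74 and -2.13 at 4 h to -1.50 and -1.47 at 8 h, and that of histone genes from 1.01 and 0.45 to -0.04 and 0.19.

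The ribosomal protein gene that rose most was rpl3002 (SPAC1250.05), 1 of a pair of genes for protein L30 of the large subunit. It was at -4.38, -2.50, -1.33 and -1.21 at 4, 5, 7 and 8 h in series 1 and at -3.38, -2.95, -1.92 and -1.63 in series 2. All late values lay above all middle ones, a change of 1.78 ± 0.25 (standard error of the model, as in every ± below), or 3.43-fold, with a limma adjusted p of 0.00705. Its paralogue rpl3001 changed by 0.84 ± 0.17 (adjusted p 0.0272). The array may not tell such copies fully apart, since their sequences are close. After rpl3002 came rpl2702 with 1.00 ± 0.19, rps20 with 0.97 ± 0.20, rpp202, a protein of the stalk, with 0.96 ± 0.18 and rpl3802 with 0.93 ± 0.18.

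Of 42 proteins with more than 1 measured gene, all copies were called for 22, some for 14 and none for 6, and the median range within a protein was 0.08. The widest range was that of L30. The next was 0.66, between rpl501, which changed by 0.05 ± 0.14 and was 1.04 above growth at the middle hours, and its partner with 0.71. The single ribosomal protein gene with a negative change was rps7, at 0.81 above growth in the middle and 0.49 late, a change of -0.32 ± 0.15 (adjusted p 0.268).

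Of 50 genes of ribosome biogenesis, 6 rose between middle and late and 0 fell, with a median change of 0.29 (0.40 in series 1 and 0.18 in series 2). In both series 39 of the 50 were higher, against 1582 of all 4783 genes tested. Against 5 h alone the late median was 0.32 higher in series 1 and 0.05 higher in series 2, where 27 of the 50 genes were higher. Between early and middle, 36 of the 50 had risen with a median of 0.89, and 18 of the 118 ribosomal protein genes with a median of 0.28. Over all genes tested, 814 of 4783 had risen, with a median of 0.06, so the ribosomal protein count was near the share of all genes. The difference in timing between the lists was not tested. The largest late change was that of rlp7, which acts in the processing of the large subunit's RNA. It was at -1.93, -1.14, -0.57 and -0.38 in series 1 and at -2.26, -1.66, -1.31 and -1.06 in series 2, so each series rose at every step while the groups overlapped through the offset between the series. The change was 0.92 ± 0.13 (adjusted p 0.00705). The others named were nop2, an RNA methyltransferase measured on 7 of the 8 arrays (0.80 ± 0.18), rrp5 (0.67 ± 0.15) and mpp10 (0.60 ± 0.13), which act in early processing of ribosomal RNA.

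Some further genes tied to the ribosome rose, chosen here after their values were seen. They were cpc2, the homologue of the ribosomal scaffold RACK1 (0.63 ± 0.15), egd2 and btf3, subunits of the complex that binds nascent chains (0.64 ± 0.14 and 0.59 ± 0.14), tma19 (0.65 ± 0.13), and the biogenesis factors dbp2 (0.84 ± 0.15), rio2 (0.78 ± 0.18) and utp20 (0.76 ± 0.14). Other parts of protein synthesis did not pass the test. Of 31 translation factors 0 were called (median 0.12), and of 55 genes of mitochondrial ribosomal proteins 0 were called (median -0.08). The lowest adjusted p in these lists was 0.0978 and 0.149.

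Chaperone genes held 3 of 27 called, all higher, with a list median of 0.19. The Hsp70 gene ssa2 was at -0.83, -0.14, 0.29 and 0.52 in series 1 and at -2.65, -1.85, -1.29 and -1.26 in series 2. Series 2 stayed below series 1 at every hour, so the groups overlapped, but within each series both late values lay above both middle values. The change was 0.93 ± 0.12 (adjusted p 0.00593), and it was lost under 5 of the 19 alternatives. A further Hsp70 gene, ssa1, changed by 0.76 ± 0.13 and aha1, a partner of Hsp90, by 0.48 ± 0.12.

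The largest rise was that of mfm1, the precursor gene of M-factor. It was at 4.75, 8.88, 9.07 and 8.90 in series 1 and at 5.24, 7.17, 8.36 and 8.18 in series 2, a change of 2.12 ± 0.34 (4.35-fold, adjusted p 0.0173). The groups overlapped, since 5 h of series 1 lay above both late values of series 2, and the values at 4 h were the lowest in both series. The other M-factor gene measured, mfm3, went from a middle mean of 6.93 to a late mean of 8.06 (1.13 ± 0.45, adjusted p 0.192), and the gene of the P-factor receptor, mam2, from 5.03 to 5.97 (0.95 ± 0.33, adjusted p 0.13). Of 31 mating genes, mfm1 alone passed (median 0.15), and the 7 M-cell genes had a median of -0.02 in series 1 and 0.83 in series 2. Other M-cell genes did not pass: mam1 had a change of 0.28 ± 0.22 (-0.26 in series 1), and mam3, which also takes part in mating of M cells, one of -0.59 ± 0.22 (adjusted p 0.157). The regulators of mating and meiosis ste11 (0.42 ± 0.15) and mei2 (0.50 ± 0.34) did not pass, nor did any of 15 meiotic regulators, 18 recombination genes and 17 genes of spore formation.

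Next came hsp3105, of the Hsp31 family of stress-induced proteins. It was at 2.17, 1.11, 2.55 and 3.07 in series 1 and at -0.52, -0.06, 2.07 and 2.59 in series 2. The rise was larger in series 2 (2.62) than in series 1 (1.17), and 4 h of series 1 lay above the lowest late value, 2.07. The change was 1.90 ± 0.34 (adjusted p 0.0191). It had not changed beyond the test between early and middle (0.13 ± 0.34).

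Further genes that rose stood alone in their lists or outside them. Among them apt1, adenine phosphoribosyltransferase of purine salvage, was at -3.56, -2.60, -1.85 and -1.82 in series 1 and at -2.85, -2.76, -2.02 and -1.76 in series 2. All late values lay above all middle ones, a change of 1.08 ± 0.19 (adjusted p 0.0191). Smaller rises were those of ync13, of the Munc13 family (0.98 ± 0.17), and nep2, a NEDD8 protease (0.95 ± 0.22), and of the genes SPAC513.04 (1.20 ± 0.28), SPAC4F10.17 (1.02 ± 0.21) and SPAC977.17 (0.99 ± 0.25), for which no role is given here. The gene sre1, whose protein activates sterol genes when oxygen is low, rose by 0.46 ± 0.12.

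**Figure D3:**
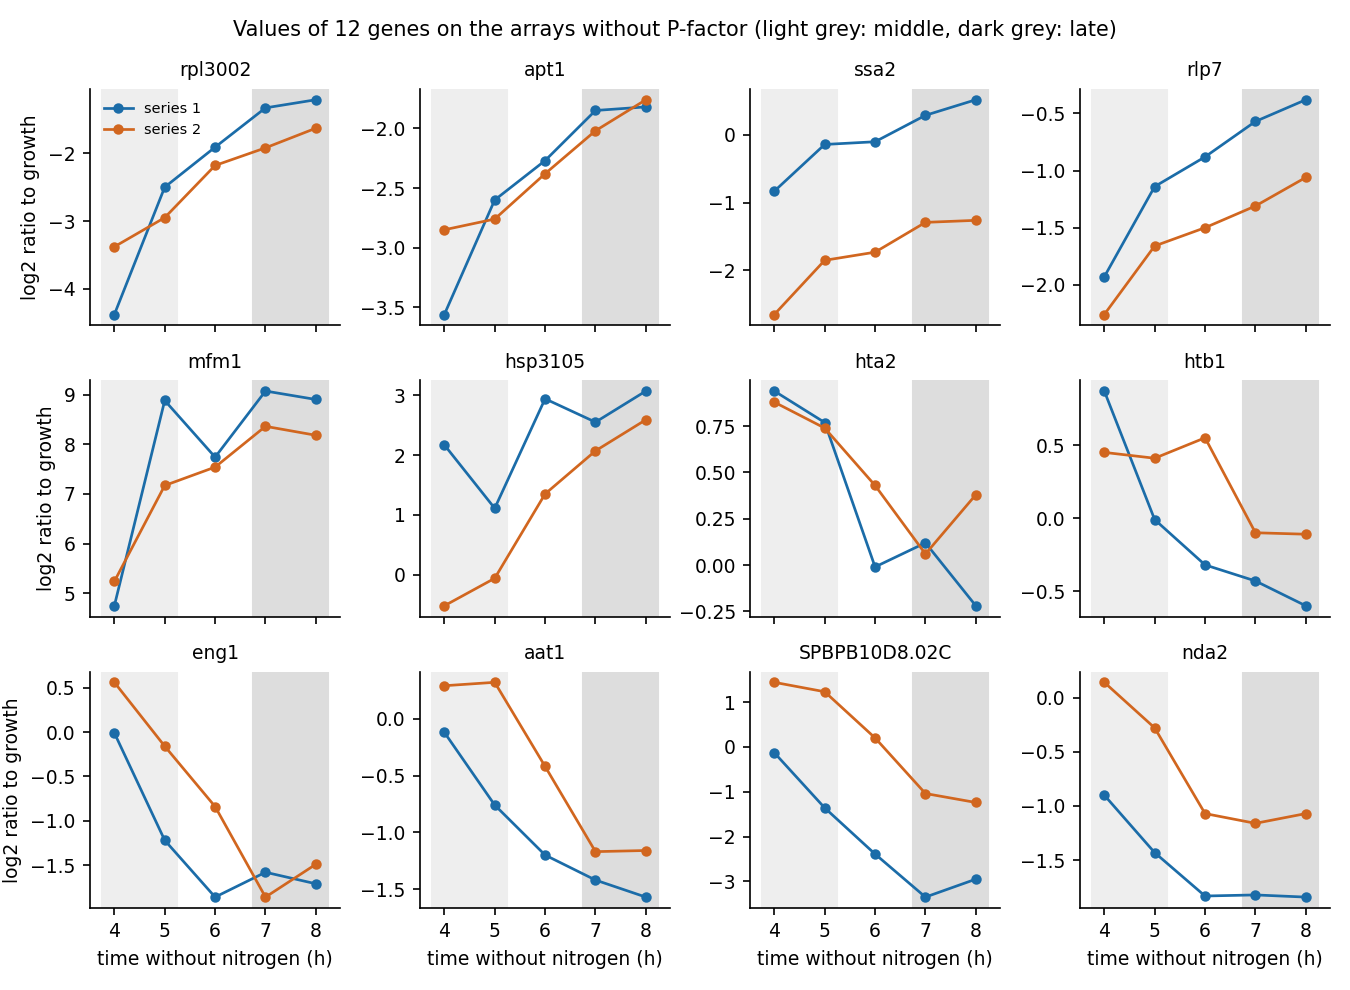
Log2 ratio to growth of 12 genes on the arrays without P-factor from 4 to 8 h, series 1 in blue and series 2 in orange, with the middle and late hours shaded. The 6 genes of the first 6 panels rose and the other 6 fell; for ssa2 and nda2 the series are offset, and for mfm1 the array at 5 h of series 1 already reached 8.88.

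Of 10 histone genes measured, 3 fell and 0 rose, with a median change of -0.52 (-0.73 in series 1 and -0.32 in series 2), and 8 were lower in both series. The called genes were hta2, for H2A, htb1, for H2B, and hhf1, for H4. In series 1 hta2 was at 0.94, 0.77, 0.12 and -0.22 and in series 2 at 0.88, 0.74, 0.06 and 0.38. Its groups did not overlap, and the change was -0.74 ± 0.14 (adjusted p 0.0235). The changes of htb1 (-0.74 ± 0.17) and hhf1 (-0.63 ± 0.15) were near it. The H3 genes hht1 (-0.27 ± 0.15), hht2 (0.01 ± 0.16) and hht3 (-0.13 ± 0.21), the last 2 measured on 7 of the 8 arrays, did not pass. Neither did the rest of the list, hta1 (-0.53 ± 0.19), hhf2 (-0.54 ± 0.18), hhf3 (-0.51 ± 0.17) and pht1 (-0.42 ± 0.20). Histone transcripts are normally made for DNA replication, and 1 of 29 genes of S phase entry and replication fell, cdt2 (-0.76 ± 0.19), which directs the breakdown of replication regulators. The median of that list was -0.24 (-0.11 in series 1 and -0.31 in series 2), with 20 of 29 lower in both series. Over all 4783 genes tested, 1380 were lower in both series. Against 5 h alone, the late median difference was 0.01 in series 1, with 15 of 29 genes higher, and -0.25 in series 2. Outside the list, cdm1, a subunit of DNA polymerase delta, fell by 0.98 (± 0.20).

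Of 24 genes of mitosis and septation, 2 fell and 0 rose, with a median of -0.28 (-0.14 in series 1 and -0.45 in series 2). Against 5 h alone, the late median difference was 0.06 in series 1, with 14 of 24 genes higher, and -0.43 in series 2. The endoglucanase gene eng1, whose enzyme dissolves the primary septum, was at -0.01, -1.22, -1.58 and -1.71 in series 1 and at 0.56, -0.16, -1.86 and -1.49 in series 2. All late values lay below all middle ones, a change of -1.45 ± 0.37 (2.74-fold lower, adjusted p 0.0474). The gene cfh4 changed by -1.23 ± 0.30 (adjusted p 0.0404).

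A gene of α-tubulin, nda2, was at -0.90, -1.43, -1.82 and -1.84 in series 1 and at 0.14, -0.28, -1.16 and -1.07 in series 2. Within each series both late values lay below both middle ones, and the series offset made the groups overlap. The change was -0.85 ± 0.15 (adjusted p 0.0191).

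Transport and nucleobase genes fell from different heights. The amino acid transporter gene aat1 was at -0.12, -0.76, -1.42 and -1.57 in series 1 and at 0.29, 0.32, -1.17 and -1.16 in series 2. All late values lay below all middle ones, a change of -1.26 ± 0.18 (2.4-fold lower, adjusted p 0.00705), after a fall of 2.02 between early and middle. SPBC359.01, with 1 coding gene between it and aat1 in the RefSeq annotation, changed by -0.96 ± 0.16. Of 11 genes of uracil and pyrimidine use, 3 fell and 0 rose. The list median was -0.16, and it was -0.01 without 7 h of series 2 and -0.43 after quantile normalization. They were urg2 (-0.88 ± 0.17) and its direct neighbour urg3 (-0.87 ± 0.20), both named for their induction by uracil, and urh1, for a uridine ribohydrolase (-0.70 ± 0.17). These stayed above growth, urh1 at a mean of 4.62 in the middle and 3.93 late. No gene among 22 of nitrogen uptake and assimilation was called (median 0.10, lowest adjusted p 0.0856), with the proline permease put4 at 0.04 ± 0.14 and isp4 at 0.02 ± 0.20.

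Of the named genes, the call that held under the most alternatives was the fall of SPBPB10D8.02C, a gene near a chromosome end. It was at -0.13, -1.36, -3.35 and -2.95 in series 1 and at 1.44, 1.23, -1.04 and -1.24 in series 2. Within each series both late values lay more than 1 log2 unit below both middle ones, although 5 h of series 1 overlapped the late values of series 2. The change was -2.44 ± 0.19 (5.43-fold lower, adjusted p 3.51e-05), and it passed under 16 of the 19 alternatives. Of 160 genes near chromosome ends, 5 rose (3.12%) and 4 fell, with a median of 0.04. Over all genes tested 2.86% rose and 1.05% fell, so the count that rose was near the share of all genes. SPBPB2B2.19C (-1.08 ± 0.24) and the galactokinase gene gal1 (-0.79 ± 0.19) were also among those that fell, and 3 of the 5 that rose were ribosomal protein genes.

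The flavoprotein gene obr1 changed by -1.46 ± 0.28 (adjusted p 0.0219) and the glutathione transferase gene gst1 by -1.08 ± 0.28 (0.0495), the 2 called of 25 core stress effectors, whose median was 0.12. Other stress genes did not pass: ctt1, for catalase, had -0.24 ± 0.19, hsp9 0.27 ± 0.25 and the metallothionein gene zym1 0.84 ± 0.26 (adjusted p 0.086). The sterol methyltransferase gene erg6 changed by -0.83 ± 0.15 (adjusted p 0.0219). It was the 1 gene that fell of 27 of sterol and fatty acid synthesis, where sre1 rose and the median was -0.18.

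Several lists of starvation and metabolism held no called gene by limma. These were autophagy (27 genes, median 0.06), vacuolar proteases (6, 0.07), amino acid biosynthesis (56, -0.02), the TCA cycle (20, -0.03), the respiratory chain (26, -0.13), glycolysis (17, 0.01) and the proteasome (35, -0.18). For the proteasome, 23 of 35 genes were lower in both series, and 5 were lower at an unadjusted p under 0.05. Over all 4783 genes tested, these counts were 1380 and 393.

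**Figure D4:**
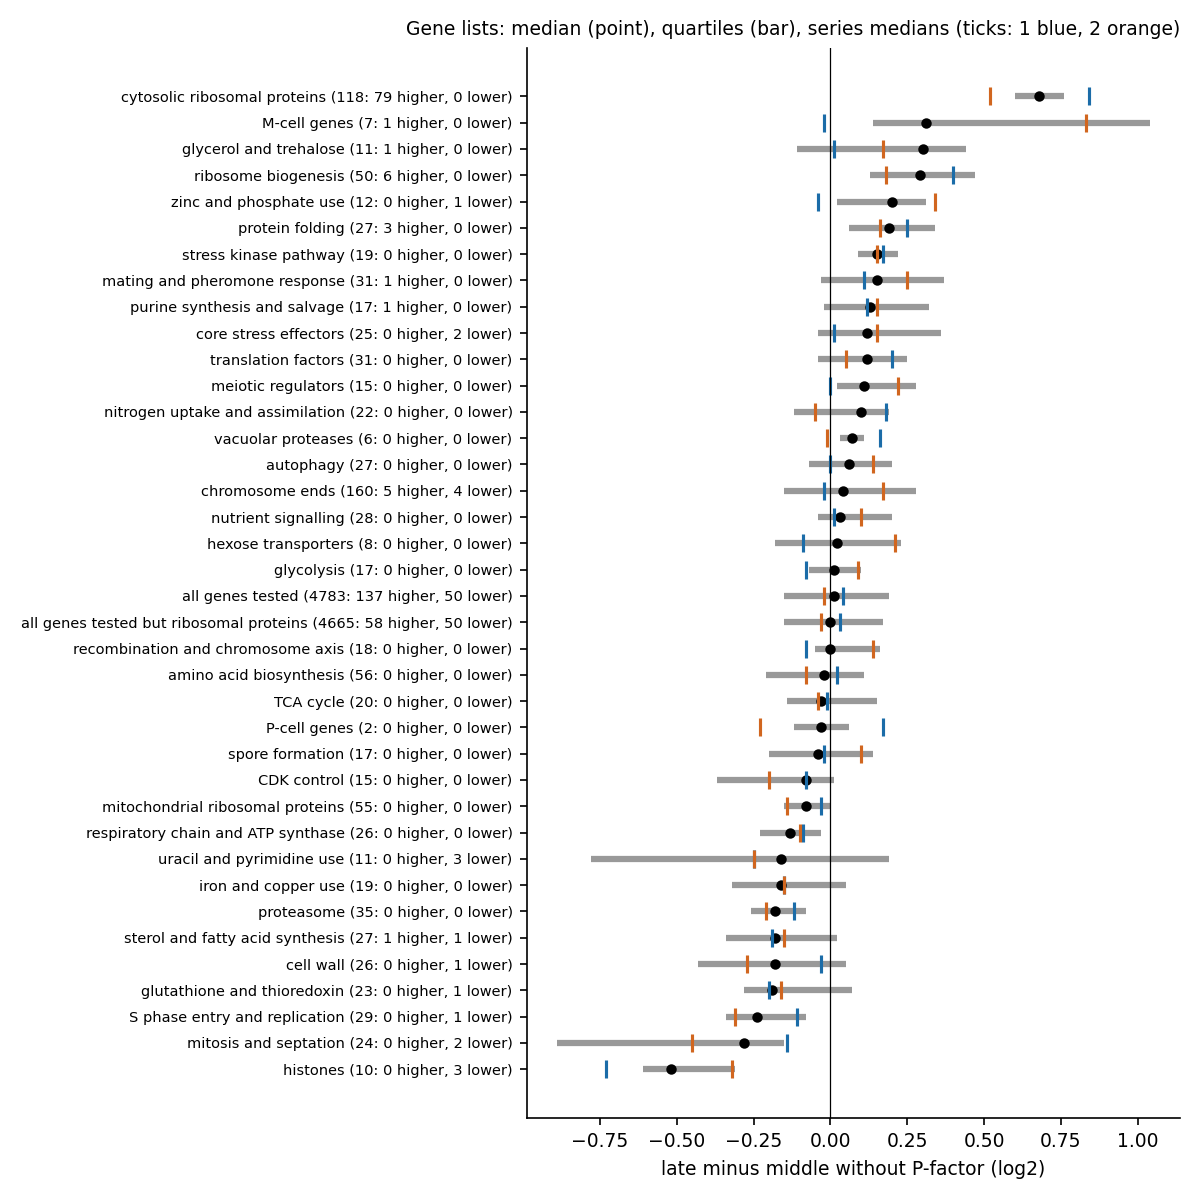
Late minus middle change without P-factor (log2) for each gene list, with the number of genes measured and called; points are medians, bars the quartiles over genes, and ticks the medians in series 1 (blue) and series 2 (orange). Cytosolic ribosomal proteins lie highest at 0.68 and histones lowest at -0.52, with most lists within 0.3 of 0.

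The same contrast in the P-factor condition compares other arrays than this one. Its calls came from a fit of the arrays of both conditions, so their spread was estimated in part from the arrays without P-factor. The overlaps of calls given below are therefore not between independent tests. With P-factor, 343 genes rose (7.17%) and 240 fell (5.02%). A fit of all 32 arrays with a fixed block called 107 higher and 63 lower without P-factor, against 137 and 50 in the main fit. Of the 137 genes that rose late without P-factor, 15 also rose with it, 10.9% of these and 4.37% of those that rose with P-factor. Of the 50 that fell without P-factor, 23 also fell with it, 46% of these and 9.58% of those that fell with P-factor. Among the latter were eng1 (-1.72 ± 0.39 with P-factor), aat1 (-1.44 ± 0.22) and SPBPB10D8.02C (-2.77 ± 0.30).

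The difference between the conditions was tested on all 32 arrays, and 150 of 4781 genes passed (3.14%). Of these, 118 changed more in the upward direction with P-factor and 32 more downward (0.669%). The count was 33 without the replicate block, 14 without series 1 and 22 without series 2 of this condition, and 44 without series 2 and 173 without series 1 of the P-factor condition. In the counts without a series, the spread came from the other condition alone. Of the 137 genes that rose without P-factor 2 passed the test of the difference, and of the 50 that fell 11. These genes were chosen by the change without P-factor, which the difference also uses. That choice by itself shifts the difference, so these counts do not show that the changes depend on the condition.

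The ribosomal protein genes had a median change of 0.25 with P-factor, against 0.68 without it. In fits of all 32 arrays, 2 of them were called with P-factor and 51 without it, against 79 without it in the main fit. The median difference was -0.44, but 0 of 118 genes passed the test of the difference. With P-factor the median level at 4, 5, 7 and 8 h was -2.49, -2.50, -1.90 and -1.93 in series 1 and -1.99, -1.88, -2.00 and -1.97 in series 2, so the rise was seen in a single series. Among the named genes whose change differed were hsp3105, which changed by 0.10 ± 0.33 with P-factor (difference -1.79 ± 0.46, adjusted p 0.035), nda2, which changed by 0.12 ± 0.14 (difference 0.98), urh1, which fell by 2.11 (difference -1.41), and cdt2, which changed by 0.57 ± 0.20 (difference 1.33, adjusted p 0.0112).

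**Figure D5:**
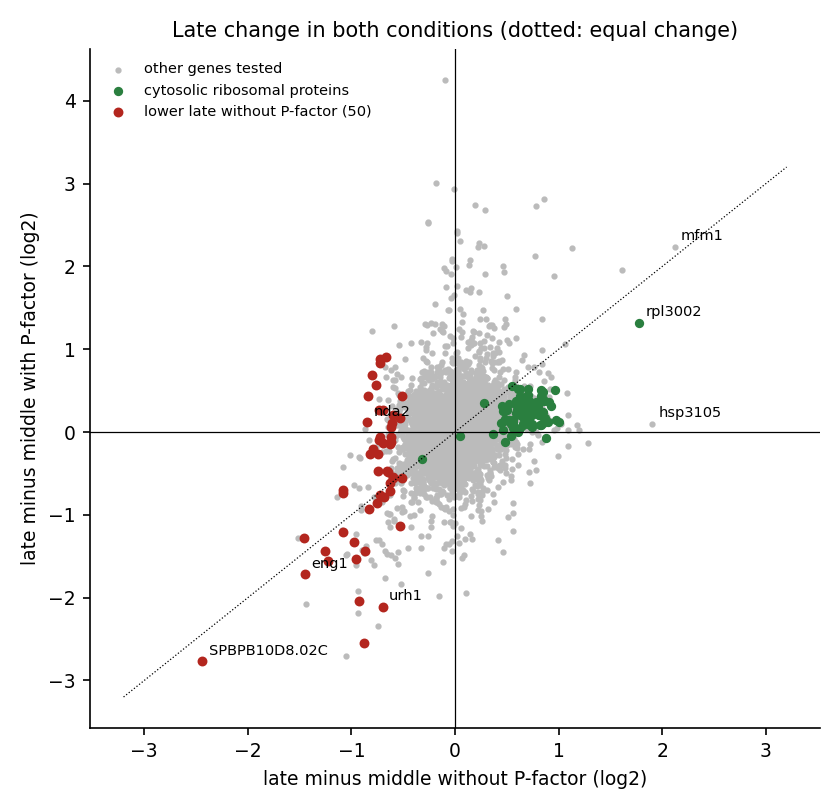
Late minus middle change (log2) of each gene without P-factor (horizontal axis) and with it (vertical axis); ribosomal protein genes are green, genes that fell without P-factor red, and the dotted line marks equal change. Most ribosomal protein genes lie right of 0 and below the line, with medians of 0.68 and 0.25.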

How the data were processed

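PolyA RNA of starved and growing cells was compared on spotted 2-colour arrays. The deposited values are log ratios taken as log2 of Cy5 (starved) over Cy3 (growing), per the labels' dyes. Log base, background correction and normalization are not given in the sources used here, and another base would rescale every fold. No dye swap was labelled, so a gene's dye bias stays in its level against growth and cancels between hours. Of 5188 probes, 4868 matched 1 gene in the platform annotation, 22 several and 298 none. Probes of a gene were averaged (4 of 4819 genes), and each array was centred on its median, which had lain between -0.154 and 0.091. Missing values made up 0.451%.

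The fit used limma 3.58.1 in R 4.3.3 on the 16 arrays without P-factor, with a mean for each hour and the array series as a fixed block (7 residual and 6.1 prior degrees of freedom). Genes measured on at least 3 of 4 arrays of each stage and 12 of the 16 arrays were tested, two-sided, with Benjamini-Hochberg adjustment over all genes and a threshold of 0.05. A missing value drops that array for that gene. The contrast with P-factor and the difference between conditions used all 32 arrays. The fit was also run on simulated data, with noise drawn separately for each gene. That run cannot show how a shift shared by many genes on an array affects the calls. Replicates were taken from the array numbers, since the labels number none, and arrays correlated more within a series than within an hour.

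Named genes were in each direction the 14 with the largest change among called genes (measured on all 8 arrays, same sign in both series), up to 4 called genes of each list with at least 2 called, and a set of 26 starvation, mating and stress genes. Gene lists, members and the rule were chosen with earlier results of these data known. Of 4819 genes, 4793 were found in RefSeq (assembly ASM294v3), used for names and neighbours alone. Promoter sequences were not used here. Alternatives were centring, scaling, quantile normalization, the arrays in the fit, the kind of block, missing values, a slope over 4 to 8 h, and leaving out arrays or series.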

Additional observations from a re-analysis of the deposited data

Results flagged for a closer look

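For 79 named genes, the middle and the late group, where measured on all 4 arrays, were tested for a value apart from the others. In 5 groups a value stood apart, a smaller share of the groups tested than the 1 in 20 that chance gives. These values are therefore no more frequent than chance and are listed as a description only. For rps20 the lowest late value was -1.50, with a median of -1.28 for the others. For urg2 the lowest late value was 3.07, with a median of 3.65 for the others. For rrp5 the highest middle value was -0.66, with -1.40 for the others. For isp6 the highest middle value was 6.84, with 5.80 for the others. For egd2 the lowest middle value was -2.90, with -2.04 for the others.

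The change from middle to late differed between the conditions for 150 genes by the test of the difference. Of the named genes these included hsp3105 (difference -1.79, counted as the change with P-factor minus that without), nda2 (0.98), urh1 (-1.41), mam3 (1.87) and cdt2 (1.33). For hsp3105 the change was 1.90 without P-factor and 0.10 with it, and for nda2 -0.85 and 0.12. For urh1 it was -0.70 and -2.11, for mam3 -0.59 and 1.28, and for cdt2 -0.76 and 0.57. All of these but mam3 had been called on the change without P-factor, which the difference also uses. Strain and P-factor cannot be told apart here.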

How the results depend on the processing

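Under the 19 alternatives, the median of the cytosolic ribosomal protein genes lay between 0.50 and 0.85, that of ribosome biogenesis between 0.18 and 0.38 and that of histones between -0.73 and -0.35. Without the replicate block, 0 genes were called, 0 higher, 0 lower, 0 by 2-fold or more and 0 ribosomal protein genes, and 33 for the difference between conditions. A slope over 4 to 8 h gave 462 calls, 291 higher and 171 lower, 28 by 2-fold or more. Only the 8 arrays gave 83 higher, 24 by 2-fold and 31 ribosomal protein genes. Quantile normalization gave 88 higher and 39 ribosomal protein genes, scaling 23 by 2-fold, all 32 arrays with a random block 91 higher, and with a fixed block 51 ribosomal protein genes. Leaving out an array or a series gave 1 to 188 calls, 0 to 31 lower, 1 to 28 by 2-fold and 0 to 107 ribosomal protein genes, and 14 to 173 for the difference. The number higher was 0 to 15 in all of these but 1: without 4 h of series 2, all but 31 of the 188 calls were higher. The slope uses more arrays and leaving out uses fewer; for the others the cause was not tested. Arrays limit precision: the median standard error was 0.16.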

Other observations

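Of the 17 genes with a change of 2-fold or more that did not pass the test, 9 were lower and 8 higher late. The largest rise was that of pdc201, a pyruvate decarboxylase gene, at 1.61 ± 0.49 (adjusted p 0.0828), with 1.27 in series 1 and 1.96 in series 2. The purine synthesis gene ade5 changed by 1.28 ± 0.42, with 2.31 in series 1 and 0.24 in series 2. The gene SPAC869.01 changed by -1.77 in series 1 and -0.34 in series 2. The iron transporter gene str1 changed by 1.06 ± 0.30 (adjusted p 0.0645). The 320 probes without a single gene had a median change of 0.08.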
